A study of Oryza sativa Japonica Group with 12 samples.

Results

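The young leaf 6 (L6) was compared with the old leaf 3 (L3) of wild-type rice (Oryza sativa, Japonica group) on Affymetrix rice arrays. The arrays of 3 wild-type plants were used, so the groups WT_L6 and WT_L3 held 3 arrays each, 6 of the 12 arrays of the series. They were chosen by genotype and leaf in the labels, and both leaves of a plant carry the same replicate number. Plants were grown in hydroponics and collected at 45 days, at the tillering stage, and leaves of the main tiller were counted in order of emergence. Wild-type plants carried no transgene. The other 6 arrays came from the same leaves of 3 lines over-expressing miR156, a microRNA (OE_L6 and OE_L3), 1 plant of each line (Md15, Md43 and Mh9), selected on hygromycin. They served here to estimate the spread and for a second look at the same leaf difference. Leaf age and leaf position change together between L3 and L6 and cannot be told apart.

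A grass leaf grows from its base: cells divide there, elongate, lay down walls and then mature towards the tip. Later-emerging leaves are therefore closer to division, expansion and wall thickening than earlier ones. An ageing leaf turns to breaking down chlorophyll and plastid protein and to moving nitrogen, potassium, phosphate and metals to younger organs. Whole leaves were used, so fewer cells of a type and less RNA per cell cannot be told apart in any value below.

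Values are linear array signals. Differences are WT_L6 minus WT_L3 of log2(signal + 16); the added 16 makes folds of dim probe sets too small, and signals of different probe sets are not compared. Calls come from limma over all 4 groups with Benjamini-Hochberg adjustment over all probe sets tested, at an adjusted p under 0.05. Errors of differences are standard errors (SE) of that fit.

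WT_L3 replicate 1 stood apart from the other arrays of its group. Across probe sets it correlated at 0.900 and 0.904 with WT_L3 replicates 2 and 3, which correlated at 0.993 with each other, against 0.974 to 0.990 among WT_L6 arrays. A score that runs from the mean L3 (0) to the mean L6 (1) of the over-expressors was 0.915, 1.11 and 1.07 in WT_L6 replicates 1 to 3, against 0.382, -0.286 and -0.266 in WT_L3 replicates 1 to 3. The mean variance of probe sets was 0.0425 in WT_L6 and 0.169 in WT_L3, against 0.0469 in OE_L6 and 0.115 in OE_L3. The OE_L3 arrays were thus uneven too, and the 0 of the score is their mean. In OE_L3 replicates 1 to 3, CESA4 was at 560, 593 and 66.9 and LAC7 at 271, 517 and 54.9. A high L3 level of such genes was therefore not particular to wild-type plant 1. Median signals of the 6 wild-type arrays lay between 50.8 and 56.5. The 3′ to 5′ signal ratio of the actin control was 7.84, 6.24 and 6.59 in WT_L6, against 8.14, 4.23 and 6.71 in WT_L3. Results are therefore given with and without WT_L3 replicate 1 where it matters.

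The labels' tissue was checked on marker genes. Of 5 green-leaf genes found, 4 were tested, and the list summed to 27194 to 31196 in WT_L6 and 27326 to 30590 in WT_L3. That sum hides members of opposite direction. RBCS-C (log2 0.37) and RCA (0.57) were called higher in WT_L6, whereas LHCP and the CAB2R probe set used here were at -0.47 each and not called. Of 4 shoot meristem genes, 3 (OSH1, OSH6 and OSH71) lay under the filter in both leaves, and the list summed to 180 to 183 in WT_L6 and 139 to 147 in WT_L3. Of 10 flower genes 7 lay under the filter, and of 3 root genes LSI2 and AMT1-2 did. Markers of vessels and fibres differed most: CESA4, CESA7, CESA9 and the 2 genes named BC1 summed to 4668 to 5454 in WT_L6 and 203 to 3257 in WT_L3. Of the phloem genes, SUT1 was lower in WT_L6 (log2 difference -0.56) and SUT2 was not called (0.18).

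Of 34316 probe sets tested, 16403 (47.8%) were called, 8193 (23.9%) higher and 8210 (23.9%) lower in WT_L6, and the median difference over all was 0.02. Folds were mostly moderate: 2691 probe sets were at least 2-fold higher and 2253 at least 2-fold lower. At the far end the calls were uneven, with 15 probe sets at least 16-fold higher and 90 at least 16-fold lower in WT_L6. That imbalance rested on WT_L3 replicate 1: without it, 249 were at least 16-fold higher and 119 at least 16-fold lower, and the called probe sets numbered 9804 higher and 8595 lower. WT_L6 and WT_L3 arrays did not overlap for 15255 of the called probe sets, and for 54.7% of all.

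The plants agreed on direction more than on size. Of the called probe sets, 96.1% had the same sign in 3 of 3 plants, as did 65.4% of all. The median size of the log2 difference was 0.18 in plant 1, 0.37 in plant 2 and 0.39 in plant 3. Plant 1 had 494 probe sets at least 2-fold higher in L6, against 3836 in plant 2 and 3899 in plant 3, and 1189, 3260 and 2910 at least 2-fold lower. A fit of the 6 wild-type arrays alone with the plant as a replicate block called 4196 probe sets, 1433 higher and 2763 lower; the same fit without the block called 12626. With the block over all 12 arrays, 13363 were called.

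Over the probe sets called between the over-expressors' leaves, plant 1 again had the smallest differences. These calls used the leaf difference of the over-expressors, with the filter and the spread of the fit over all 12 arrays. Over the 6478 called higher in OE_L6 the wild-type median difference was 0.30 in plant 1, 0.78 in plant 2 and 0.84 in plant 3. Over the 7967 called lower it was -0.35, -0.77 and -0.71. The sign was that of the over-expressors in 92.3% to 98.5% of the first and 95.1% to 98.8% of the second, so plant 1 moved the same way with a smaller size in both directions.

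**Figure D1:**
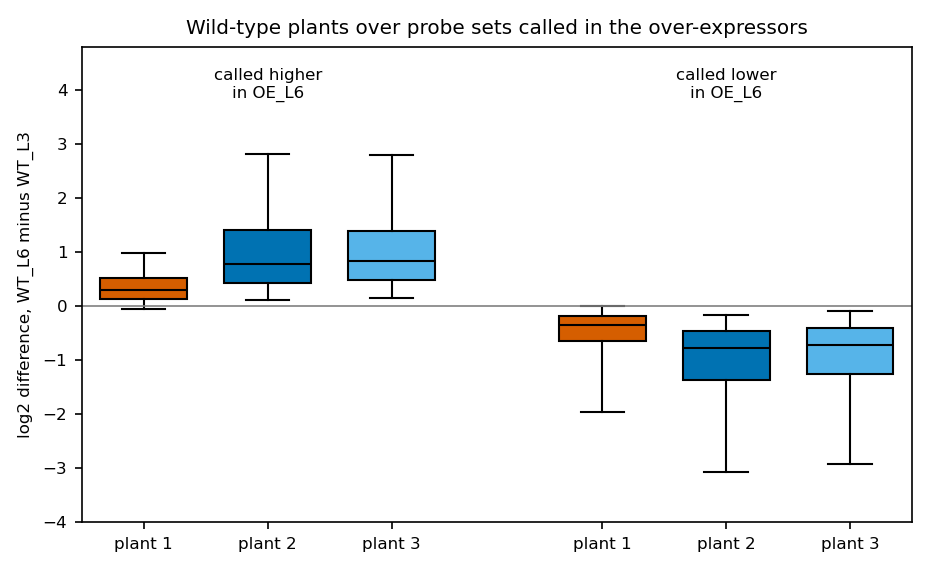
Log2 difference between WT_L6 and WT_L3 in each wild-type plant over 6478 probe sets called higher and 7967 called lower in the over-expressors' L6 by the fit over all 12 arrays (box, quartiles; line, median; whiskers, 5th to 95th percentile). Plant 1 has medians of 0.30 and -0.35, with the sign of plants 2 and 3 and a smaller size.

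Gene groups were described with 1 probe set per gene, the brightest. Of the 15517 genes, 57.3% were called, 26.2% higher and 31.1% lower, with a median difference of -0.03. Of the 46 lists, 33 held members called both ways, 6 held none called lower and 7 none called higher.

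**Figure D2:**
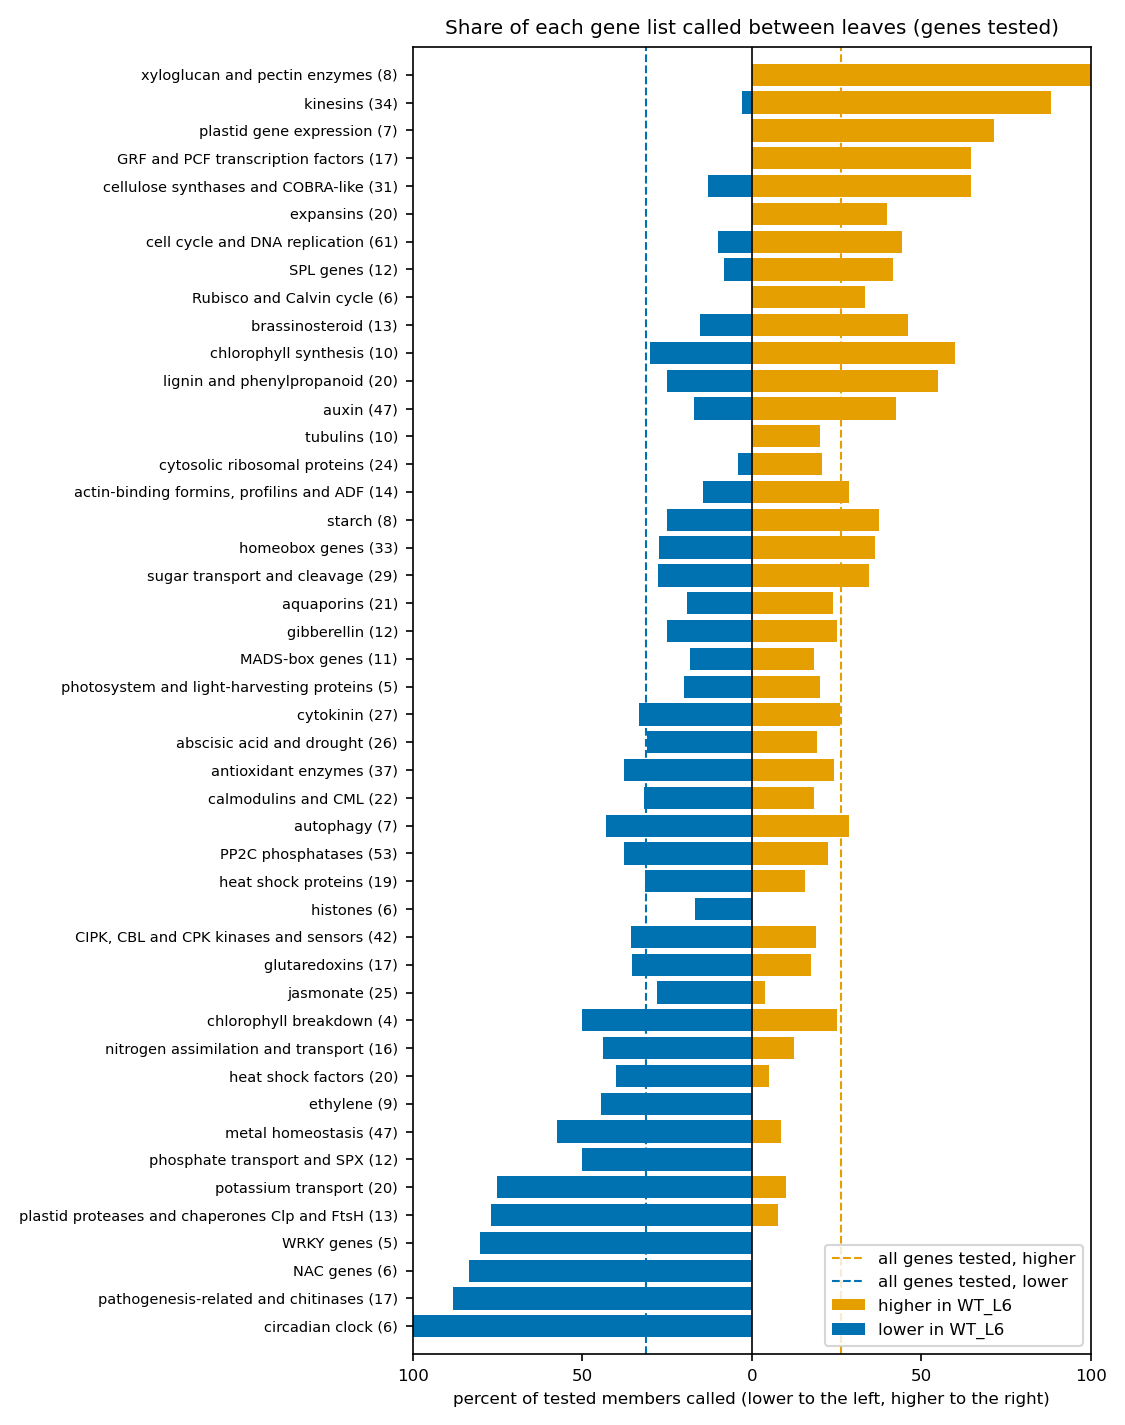
Percent of the tested members of each gene list called higher (right) or lower (left) in WT_L6, with the number tested in parentheses; dashed lines give the 26.2% and 31.1% of all 15517 genes. Kinesins and wall enzymes lie far to the right, and clock, chitinase, NAC, WRKY and potassium genes far to the left.

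Genes of dividing and growing cells were called higher more often than lower in L6. Kinesins, the motor proteins that move along microtubules, had 30 of 34 members higher and 1 lower (median 1.39). KIN14H had a signal of 753, 664 and 709 in WT_L6, against 423, 43.6 and 44.8 in WT_L3 (log2 difference 2.63, SE 0.76, limma adjusted p = 0.0174). The L3 of plant 1 lay far above those of plants 2 and 3. Most genes named here were chosen among those whose WT_L6 and WT_L3 arrays did not overlap, so that trait is no result about them. KIN14M ran the other way, at 48.5, 34.3 and 42.4 in WT_L6 and 142, 231 and 198 in WT_L3 (log2 -1.82, SE 0.17, limma adjusted p = 5.53e-05).

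Cell cycle and DNA replication genes had 27 of 61 members higher and 6 lower (median 0.60). KRP6, an inhibitor of cyclin-dependent kinases, was at 622, 948 and 1083 in WT_L6, against 435, 18.4 and 11.3 in WT_L3 (log2 3.55, SE 1.03, limma adjusted p = 0.0184). A second KRP6 probe set did not pass (log2 0.10). RPA32, a subunit of the protein that coats single-stranded DNA, was at 622, 670 and 481 in WT_L6 and 353, 22.5 and 32.6 in WT_L3 (log2 2.77, SE 0.83). Among the members lower in L6 were the kinase genes CDKG-1 (log2 -0.62) and CDKF-1 (-0.54). Tubulins, the building blocks of microtubules, had only TUB8 and TUB6 of 10 called, both higher (log2 1.99 and 1.80), although the list's median was 1.75. The 8 members not called ran from -0.10 (TUB3) to 2.09 (TUB1). TUB1 was at 4890, 4745 and 4275 in WT_L6 and 3872, 409 and 772 in WT_L3 (log2 2.09, limma adjusted p = 0.071). Without WT_L3 replicate 1 the counts became 31 kinesins higher and 2 lower, 33 cell cycle genes higher and 7 lower, and 8 tubulins higher and none lower. With the plant as a block in wild-type arrays alone, 2 kinesins were higher and 1 lower, 6 cell cycle genes were higher and none lower, and no tubulin was called; KIN14H had an adjusted p of 0.0609 there.

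The calls of these growth genes rested on the L3 leaves of plants 2 and 3. Without WT_L3 replicate 2 or without replicate 3, KIN14H had an adjusted p of 0.0719 and 0.073, KRP6 0.0737 and 0.0775, RPA32 0.0844 and 0.0819, TUB8 0.144 and 0.118, and TUB6 0.156 and 0.168. Leaving out a WT_L6 array also ended the calls of TUB8 and TUB6 each time, those of KRP6 for replicates 2 and 3 (0.054 and 0.0555), and that of RPA32 for replicate 2 (0.0613).

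Transcription factors that set leaf growth followed. The growth-regulating factors (GRF) and the TCP-family PCF genes, which act on cell proliferation in leaves, had 11 of 17 members higher and 0 lower (median 1.16). PCF8 was at 808, 1155 and 1263 in WT_L6, against 486, 104 and 91.1 in WT_L3 (log2 2.53, SE 0.57, limma adjusted p = 0.00583). PCF6 was at 272, 277 and 207 in WT_L6 and 176, 48.7 and 45.7 in WT_L3 (log2 1.54), and its call ended without WT_L6 replicate 2 (adjusted p = 0.055) and without WT_L3 replicate 2 (0.0695) or 3 (0.0721). GRF3 was at 282, 274 and 172 in WT_L6 and 157, 52.1 and 55.4 in WT_L3 (log2 1.42, SE 0.46). Without WT_L3 replicate 1, 16 of the 17 were higher. With the plant as a block in wild-type arrays alone, 2 were.

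SPL genes encode transcription factors of which many are silenced by miR156, and 5 of 12 were higher and 1 lower (median 0.37). SPL14, a regulator of rice shoot architecture, was at 404, 364 and 86 in WT_L6, against 62.5, 17.3 and 12.2 in WT_L3 (log2 2.60, SE 0.53, limma adjusted p = 0.00355). WT_L6 replicate 3 lay well below the other WT_L6 arrays. SPL12 was at 585, 606 and 562 in WT_L6 and 285, 210 and 224 in WT_L3 (log2 1.24, SE 0.16, limma adjusted p = 0.000341). SPL16 (log2 0.93), SPL8 (0.88) and SPL4 (0.45) were the other members called higher. With the plant as a block in wild-type arrays alone, 3 SPL genes were higher and none lower. SPL1 was lower in L6, at 327, 219 and 244, against 514, 944 and 857 in WT_L3 (log2 -1.47, SE 0.22, limma adjusted p = 0.00078).

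Homeobox genes split, with 12 of 33 higher and 9 lower (median 0.15). HOS66 was at 606, 1052 and 1138 in WT_L6 and 466, 13.8 and 11 in WT_L3 (log2 3.65, SE 1.13, limma adjusted p = 0.0234), and lost its call without WT_L6 replicate 2 or 3 and without WT_L3 replicate 2 or 3 (0.0663 to 0.0939). In wild-type arrays alone with the plant as a block, 6 homeobox genes were higher and 2 lower. HOX1 was at 157, 92.1 and 105 in WT_L6, against 651, 584 and 635 in WT_L3 (log2 -2.28, SE 0.23, limma adjusted p = 9.51e-05). MADS-box genes, known best from flowers, had 2 of 11 higher and 2 lower. MADS16, a floral organ gene, was at 476, 443 and 544 in WT_L6 and 197, 154 and 143 in WT_L3 (log2 1.48, SE 0.13, limma adjusted p = 4.62e-05). Most other flower genes held little signal in these leaves.

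Wall genes held wide gaps on the L6 side. Cellulose synthase and COBRA-like genes had 20 of 31 members higher and 4 lower (median 1.34). CESA4, a catalytic subunit for cellulose of secondary walls, was at 1996, 1744 and 2024 in WT_L6, against 1211, 49.8 and 53.6 in WT_L3 (log2 3.44, SE 1.06, limma adjusted p = 0.0226). A second CESA4 probe set had a smaller difference and a lower adjusted p (log2 1.83, limma adjusted p = 0.00512). Fits without single arrays are given below for the first only. CESA9, which acts in the same complex, was at 1168, 1035 and 1248 in WT_L6 and 732, 30.2 and 29.2 in WT_L3 (log2 3.32, SE 1.02). In both genes plant 1 kept much of its L6 signal in L3, while plants 2 and 3 lay near or below the median signal of the arrays. CSLE1, a cellulose synthase-like gene, was lower in L6, at 153, 101 and 110 against 893, 984 and 1026 in WT_L3 (log2 -2.86, SE 0.19, limma adjusted p = 6.75e-06), as was the COBRA-like gene BC1L9 (log2 -3.30).

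All 8 genes tested of the list named for xyloglucan and pectin enzymes were higher (median 2.01). The list is made mostly of TBL and PMEI genes, so it does not stand for xyloglucan and pectin enzymes at large. The 5 TBL members belong to a family of acetyltransferases of wall polysaccharides, and PMEI8 and PMEI28 to the inhibitors of pectin methylesterase. TBL6 was at 1349, 1427 and 1486 in WT_L6, against 749, 20.3 and 28.6 in WT_L3 (log2 3.74, SE 1.16, limma adjusted p = 0.0233). A second TBL6 probe set, not followed below, had log2 2.81 (limma adjusted p = 0.00523). PMEI8 was at 198, 417 and 597 in WT_L6 and 135, 18.8 and 15.3 in WT_L3 (log2 2.81, SE 0.67). Expansins, which loosen walls, had 8 of 20 members higher and 0 lower (median 0.57), with EXP16 at 230, 220 and 185 in WT_L6 and 118, 45.8 and 39.8 in WT_L3 (log2 1.55, SE 0.33, limma adjusted p = 0.00423).

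Lignin and phenylpropanoid genes had 11 of 20 members higher and 5 lower (median 0.40). Of the 6 laccases, oxidases that couple lignin monomers, 5 were higher and LAC24 was lower (log2 -0.22). LAC7 had the widest gap of the named genes higher in L6, at 1942, 2158 and 2460 in WT_L6, against 602, 39.6 and 38.9 in WT_L3 (log2 4.15, SE 0.91, limma adjusted p = 0.00522). LAC4 was at 770, 722 and 801 in WT_L6 and 300, 14.6 and 10.7 in WT_L3 (log2 3.61, SE 0.89, limma adjusted p = 0.00886). Of the members lower in L6, 4CL5, a gene of the enzyme that activates lignin precursors, had a log2 difference of -1.65, and CAD1, of the alcohol dehydrogenase family at the end of that route, had -1.17.

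The low L3 levels of these wall genes were again those of plants 2 and 3. Without WT_L3 replicate 1 the log2 difference was 4.84 for CESA4, 5.16 for TBL6, 5.31 for LAC7 and 4.77 for LAC4, and 24 cellulose synthase and COBRA-like genes were higher and 3 lower. Without WT_L3 replicate 2 or 3, CESA4 had an adjusted p of 0.0908 and 0.0914, CESA9 0.0901 and 0.0917, and TBL6 0.0932 and 0.0913, and without WT_L6 arrays CESA4 had 0.0502 to 0.0588, CESA9 0.0493 to 0.0599 and TBL6 0.0485 to 0.061; LAC7 and LAC4 stayed called. With the plant as a block in wild-type arrays alone, 1 cellulose synthase or COBRA-like gene was higher and 2 lower. In that fit 2 genes of the xyloglucan and pectin list, 1 expansin and 3 lignin genes were higher and 1 lignin gene lower. There CESA4 had a limma adjusted p of 0.071, LAC7 0.0502 and LAC4 0.0541. The summed signal of vessel and fibre markers given above moved with these genes, which overlap with it, and its part in the result was not tested.

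**Figure D3:**
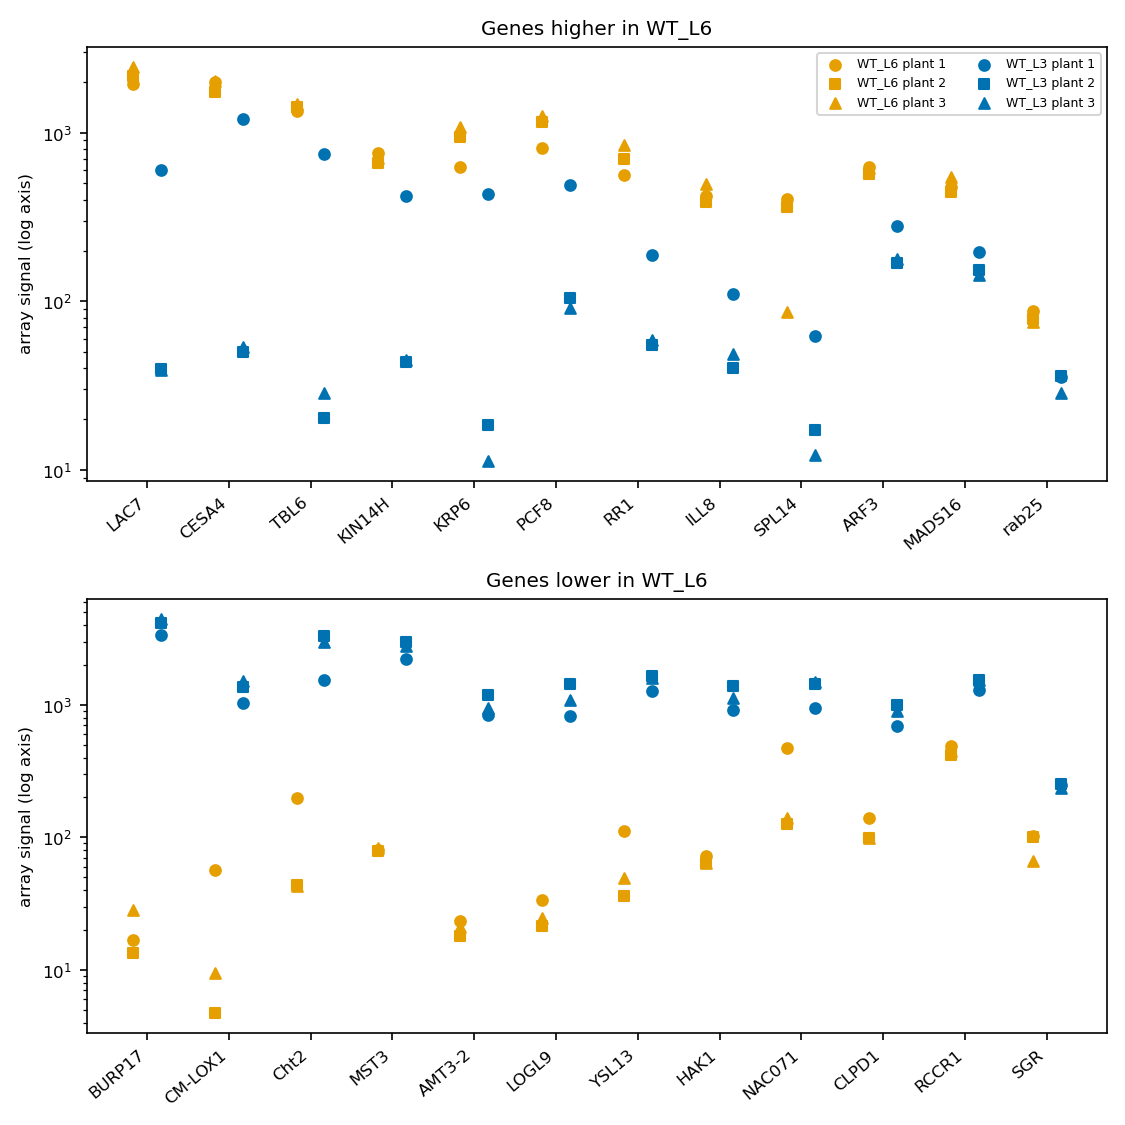
Array signal (log axis) of 12 genes called higher and 12 called lower in WT_L6, for each of the 6 arrays (marker shape, plant; WT_L6 left of WT_L3 for each gene). For LAC7, CESA4, TBL6, KIN14H and KRP6 the L3 of plant 1 lies far above those of plants 2 and 3, whereas for BURP17, MST3 and RCCR1 the 3 WT_L3 arrays lie close together, far above WT_L6.

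Some genes higher in L6 kept their calls without WT_L3 replicate 2 or 3. Those with the strongest statistics are given here, a choice that itself favours even levels within a group. The L3 of plant 1 was still the highest of the WT_L3 arrays for ARF3, ILL8, GST1 and MET1, but not for rab25. ARF3, an auxin response factor, was at 622, 571 and 621 in WT_L6, against 280, 168 and 177 in WT_L3 (log2 1.5, SE 0.17, limma adjusted p = 0.000172). ILL8, of a family that frees auxin from amino acid conjugates, was at 420, 389 and 495 in WT_L6 and 111, 40.1 and 48.9 in WT_L3 (log2 2.54, SE 0.30, limma adjusted p = 0.000203). GST1, a glutathione transferase, was at 242, 236 and 212 in WT_L6 and 85.1, 52.2 and 46.4 in WT_L3 (log2 1.70). MET1, the maintenance DNA methyltransferase, was at 114, 105 and 144 in WT_L6 and 56, 43.8 and 49.7 in WT_L3 (log2 1.05, SE 0.13, limma adjusted p = 0.000238). The zinc-finger genes C3H39 and C3H63 had log2 differences of 0.85 and 0.73, with SE 0.10 and 0.09. The abscisic acid and drought gene rab25 was at 88.1, 78.3 and 75.7 in WT_L6 and 35.5, 36.0 and 28.6 in WT_L3 (log2 0.97, SE 0.08, limma adjusted p = 1.99e-05). These 7 and MADS16 were called under every alternative setting run.

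CRSH2, a plastid enzyme that makes the alarmone ppGpp, had one of the largest rises, at 1505, 1943 and 2082 in WT_L6, against 449, 50.8 and 50.8 in WT_L3 (log2 3.85, SE 0.77, limma adjusted p = 0.00337). Its L3 level in plant 1 was again above those of plants 2 and 3.

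Among hormone genes, auxin genes had 20 of 47 members higher and 8 lower (median 0.23). IAA14, a repressor of auxin responses, was at 178, 228 and 171 in WT_L6, against 151, 4.77 and 5.56 in WT_L3 (log2 2.30, SE 0.77, limma adjusted p = 0.0317), so that plant 1 differed little between its leaves. Its call ended without any 1 of WT_L6 replicates 1 to 3 (0.0606 to 0.0875) or of WT_L3 replicates 2 and 3 (0.12 each). SAUR39, a negative regulator of auxin, was lower in L6, at 47.0, 40.3 and 47.3 against 870, 1064 and 1095 in WT_L3 (log2 -4.07, SE 0.30, limma adjusted p = 1.2e-05). PIN5a, an auxin transporter, had a log2 difference of -3.54. The blocked fit of wild-type arrays alone called 6 auxin genes higher and 6 lower.

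Cytokinin genes split, with 7 of 27 higher and 9 lower. RR1, a response regulator that cytokinin induces, was at 558, 701 and 841 in WT_L6, against 188, 55.2 and 59.1 in WT_L3 (log2 2.78, SE 0.37, limma adjusted p = 0.000373). LOGL9, of the family that activates cytokinins, was at 33.4, 21.4 and 24.8 in WT_L6 and 818, 1428 and 1091 in WT_L3 (log2 -4.70, SE 0.19, limma adjusted p = 4.64e-07). The family member LOGL7 was higher in L6 (log2 1.35), so the 2 named LOGL genes moved in opposite directions. The second LOGL7 probe set did not pass (log2 0.18). Blocked by plant, wild-type arrays alone had 1 cytokinin gene higher and 6 lower.

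Brassinosteroid genes had 6 of 13 higher and 2 lower (median 0.44), among them the receptor BRI1, at 743, 749 and 730 in WT_L6 and 506, 218 and 206 in WT_L3 (log2 1.33, SE 0.33). Gibberellin genes had 3 of 12 higher and 3 lower: CPS1, at the first step of synthesis, was higher (log2 0.95) and GA20OX3, of a late step, was lower (log2 -1.01). Ethylene genes had 0 of 9 higher and 4 lower. Both genes named EIL1, transcription factors of ethylene signalling, fell: the gene with the wider gap was at 568, 90.4 and 124 in WT_L6, against 2596, 3044 and 3180 in WT_L3 (log2 -3.84, SE 0.79, limma adjusted p = 0.00382). When wild-type arrays alone were blocked by plant, no brassinosteroid gene was called, 1 gibberellin gene was higher and 1 lower, and both EIL1 genes stayed lower.

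In the plastid, genes for making and keeping the photosynthetic machinery did not move as one. Chlorophyll synthesis genes had 6 of 10 members higher and 3 lower (median 0.45). HEMB, an early enzyme of the route, was at 868, 1187 and 1298 in WT_L6, against 708, 295 and 285 in WT_L3 (log2 1.45, SE 0.36, limma adjusted p = 0.00945). PORA, which acts near the end, was higher (log2 1.11), a call that ended without WT_L3 replicate 2 or 3 (0.059 and 0.0594). CAO, the enzyme that makes chlorophyll b, was lower in L6, at 369, 306 and 312 against 759, 1024 and 739 in WT_L3 (log2 -1.30, SE 0.16, limma adjusted p = 0.000217). The 2 probe sets of CHLH, a subunit of magnesium chelatase, were called in opposite directions (log2 -0.61 and 1.37), so no direction is given for it.

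Plastid gene expression genes had 5 of 7 members higher and 0 lower (median 0.49). ASL1 was at 2514, 3245 and 3684 in WT_L6, against 2228, 1719 and 1568 in WT_L3 (log2 0.77, SE 0.20), and wsl6 had a log2 difference of 0.81. PSB28, a protein of photosystem II assembly, was at 1071, 1204 and 1392 in WT_L6 and 532, 268 and 221 in WT_L3 (log2 1.89, SE 0.36, limma adjusted p = 0.00259). RCA, the activase of Rubisco, was at 4002, 4237 and 4755 in WT_L6 and 2886, 3151 and 2691 in WT_L3 (log2 0.57, SE 0.12, limma adjusted p = 0.00388). The Rubisco small subunit gene RBCS-C was at 12857, 13099 and 12890 in WT_L6 and 11240, 9659 and 9202 in WT_L3 (log2 0.37, SE 0.10), a small gap. The light-harvesting gene CAB2R ran the other way: 1 of its 2 probe sets was called lower (log2 -0.31) and the other was not (-0.47, limma adjusted p = 0.06). That call ended without any 1 of the arrays other than WT_L6 replicate 1 (0.0554 to 0.116). The photosystem and light-harvesting list had 1 of 5 higher and 1 lower, and the Rubisco and Calvin cycle list 2 of 6 higher and 0 lower. In the blocked wild-type fit no gene of plastid gene expression was called, 1 chlorophyll synthesis gene was lower and none higher, and RBCS-C was not called.

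Genes of chlorophyll breakdown and of the Clp and FtsH list were lower more often than higher in L6. RCCR1, which acts on the red catabolite of chlorophyll, was at 488, 415 and 446 in WT_L6, against 1300, 1546 and 1536 in WT_L3 (log2 -1.66, SE 0.16, limma adjusted p = 5.67e-05). SGR, the stay-green gene that starts chlorophyll loss, was at 102, 101 and 65.9 in WT_L6 and 248, 252 and 236 in WT_L3 (log2 -1.33, SE 0.16, limma adjusted p = 0.000225). All 3 plants had near-equal L3 levels of SGR, so plant 1 was not set apart here. Of the other 2 breakdown genes, NOL was higher in L6 (log2 0.43) and NYC1 was not called (-0.28); the call of NOL ended without WT_L6 replicate 2 or 3 and without WT_L3 replicate 2 or 3 (0.0988 to 0.143), and with the plant as a block over all 12 arrays (0.0711).

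The Clp and FtsH list of proteases and chaperones had 1 of 13 higher and 10 lower (median -0.45). It was filled by symbol and may hold members outside the plastid, FtsH genes among them, so it does not stand for plastid protein breakdown alone. CLPD1, a Clp chaperone, was at 139, 98.1 and 98.8 in WT_L6, against 692, 995 and 903 in WT_L3 (log2 -2.78, SE 0.16, limma adjusted p = 2.78e-06). CLPC2 had a log2 difference of -1.38 and the FtsH genes FTSH2 and FTSH4 had -0.84 and -0.82. FTSH3 was the member called higher (0.41). In the blocked wild-type fit 3 of the 13 were lower, and RCCR1 and SGR stayed lower. Autophagy genes showed no such lean, with 2 of 7 higher and 3 lower.

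The potassium, phosphate, nitrogen and metal lists had more members lower than higher in L6. Only in the potassium and metal lists were most members lower. Potassium transport genes had 2 of 20 members higher and 15 lower (median -0.58), against 31.1% of all genes lower. HAK1, a high-affinity potassium transporter, was at 72.8, 63.9 and 63.5 in WT_L6, against 917, 1397 and 1123 in WT_L3 (log2 -3.79, SE 0.20, limma adjusted p = 1.98e-06). AKT1, a potassium channel, was at 283, 112 and 132 in WT_L6 and 823, 1356 and 1060 in WT_L3 (log2 -2.59, SE 0.36, limma adjusted p = 0.000505). CIPK23, a kinase that activates AKT1, was at 181, 136 and 142 in WT_L6 and 440, 534 and 457 in WT_L3 (log2 -1.55), although a second probe set for it did not differ (-0.01).

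Phosphate genes had 0 of 12 members higher and 6 lower (median -0.32). The phosphate transporter PT8 was at 450, 154 and 166 in WT_L6, against 1034, 1324 and 1254 in WT_L3 (log2 -2.32, SE 0.39, limma adjusted p = 0.00144). PHT1-4, of the same family, was at 51.3, 43.3 and 47.7 in WT_L6 and 179, 247 and 231 in WT_L3 (log2 -1.88, SE 0.22). PT1 had 2 probe sets called in opposite directions (-2.36 and 0.57). The phosphate-response regulators PHR1, PHR2 and PHR3 were lower (log2 -0.82, -0.38 and -1.81), whereas SPX1 to SPX4, which hold such regulators in check, had log2 differences of 0.29, -0.26, 0.11 and 0.09 and were not called. The blocked fit of wild-type arrays alone called 6 potassium genes and 4 phosphate genes lower and none higher.

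Nitrogen genes had 2 of 16 members higher and 7 lower (median -0.14). The ammonium transporter AMT3-2 was at 23.4, 18.1 and 21.2 in WT_L6, against 833, 1186 and 952 in WT_L3 (log2 -4.76, SE 0.27, limma adjusted p = 2.75e-06). AMT3-3 was at 42.0, 19.5 and 17.7 in WT_L6 and 332, 623 and 633 in WT_L3 (log2 -3.67, SE 0.35). NAR2.2, which belongs to the proteins that assist high-affinity nitrate uptake, was at 54.1, 53.0 and 56.9 in WT_L6 and 386, 399 and 431 in WT_L3 (log2 -2.58, SE 0.10, limma adjusted p = 4.64e-07). Of the 3 glutamine synthetase genes measured, 1 rose and 1 fell. The plastid form GLN2 was higher, at 5388, 5189 and 5538 in WT_L6 and 3821, 3658 and 3275 in WT_L3 (log2 0.58, SE 0.10, limma adjusted p = 0.00154), whereas the cytosolic form GLN1-2 was lower, at 178, 225 and 205 in WT_L6 and 389, 415 and 385 in WT_L3 (log2 -0.92, SE 0.25, limma adjusted p = 0.0141). The other cytosolic form, GLN1-1, was not called (log2 -0.08). The glutamate synthase gene GLT2 was at 715, 240 and 354 in WT_L6 and 1562, 2304 and 2097 in WT_L3 (log2 -2.27, SE 0.66).

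Metal homeostasis genes had 4 of 47 members higher and 27 lower (median -0.70). YSL13, of the family that carries metals bound to nicotianamine, was at 111, 35.8 and 49.5 in WT_L6, against 1277, 1663 and 1607 in WT_L3 (log2 -4.33, SE 0.36, limma adjusted p = 3.06e-05). MT1B, a metal-binding metallothionein, was at 34.1, 34.8 and 38.4 in WT_L6 and 695, 934 and 647 in WT_L3 (log2 -3.89, SE 0.20, limma adjusted p = 1.63e-06). Higher in L6 were the metal transporter genes NRAMP6, at 296, 299 and 378 in WT_L6 and 155, 66.3 and 66.9 in WT_L3 (log2 1.68, SE 0.29), and NRAMP4 (log2 0.99). Blocked by plant, wild-type arrays alone had 2 metal genes higher and 18 lower, and 1 nitrogen gene higher and 7 lower.

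Sugar genes moved both ways, with 10 of 29 higher and 8 lower (median -0.07). MST3, a monosaccharide transporter, was at 79.7, 78.5 and 82.5 in WT_L6, against 2221, 2972 and 2784 in WT_L3 (log2 -4.79, SE 0.18, limma adjusted p = 4.39e-07). CIN2, a cell-wall invertase that splits sucrose, was at 447, 488 and 383 in WT_L6 and 315, 7.64 and 5.96 in WT_L3 (log2 3.03, SE 0.96, limma adjusted p = 0.0255), and its call ended without any 1 of the WT_L6 arrays (0.0549 to 0.0697) or WT_L3 replicate 2 or 3 (0.0996 and 0.102). SUS6, a sucrose synthase, was at 258, 288 and 264 in WT_L6 and 110, 11.5 and 12.8 in WT_L3 (log2 2.62, SE 0.56, limma adjusted p = 0.00442). Aquaporins also split, with 5 of 21 higher and 4 lower. PIP1-3, an aquaporin of the plasma membrane, was at 57.2, 32.8 and 33.4 in WT_L6 and 565, 880 and 764 in WT_L3 (log2 -3.72, SE 0.29, limma adjusted p = 1.69e-05). The silicon channel Lsi6 was higher (log2 1.22) and Lsi1, known from roots, lower (log2 -1.31). Without WT_L3 replicate 1, 11 aquaporins were higher and 5 lower. With the block by plant in wild-type arrays alone, 5 sugar genes were higher and 3 lower, and 1 aquaporin was higher and 2 lower.

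Most defence genes tested were lower in L6. Pathogenesis-related and chitinase genes had 0 of 17 members higher and 15 lower (median -1.79). Cht2, a chitinase, was at 198, 43.8 and 43.2 in WT_L6, against 1550, 3314 and 2990 in WT_L3 (log2 -4.78, SE 0.49, limma adjusted p = 9.36e-05). Cht11 was at 88.3, 18.9 and 37.1 in WT_L6 and 691, 2149 and 2363 in WT_L3 (log2 -4.73, SE 0.48, limma adjusted p = 8.64e-05). In both genes plant 1 had the highest L6 and the lowest L3 level, so its leaves lay closest together. NH1, the rice counterpart of the Arabidopsis immune regulator NPR1, was also lower, at 77.2, 51.4 and 55.8 in WT_L6 and 208, 391 and 389 in WT_L3 (log2 -2.12, SE 0.24). The list median was -0.88 in plant 1, -2.08 in plant 2 and -2.44 in plant 3. The blocked wild-type fit called 9 of the 17 lower.

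WRKY genes had 0 of 5 members higher and 4 lower (median -1.45), and NAC genes 0 of 6 higher and 5 lower (median -1.13). NAC071 was at 474, 127 and 140 in WT_L6, against 943, 1442 and 1476 in WT_L3 (log2 -2.52, SE 0.46, limma adjusted p = 0.00202), and NAC45 was at 28.0, 24.6 and 25.1 in WT_L6 and 160, 144 and 103 in WT_L3 (log2 -1.84, SE 0.24). A second NAC071 probe set was also lower, by less (log2 -0.75, limma adjusted p = 0.00968). WRKY24 was at 85.7, 21.5 and 20.0 in WT_L6 and 119, 140 and 132 in WT_L3 (log2 -1.50, SE 0.37). Over both lists the median was nearest to 0 in plant 1, at -0.24 for NAC and -0.22 for WRKY, against -1.48 and -1.48 for NAC and -2.06 and -1.93 for WRKY in plants 2 and 3. The 6 clock genes measured were called lower in 6 of 6 cases (median -0.53), from GI (log2 -0.22) to CCA1 (-0.78) and PRR95 (-0.77). The labels used here give no hour of collection. Of these lists, 1 NAC gene, 1 clock gene and no WRKY gene stayed lower in the blocked wild-type fit.

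Jasmonate genes had 1 of 25 members higher and 7 lower, and its share of lower calls was near that of all genes. Of the members that fell, CM-LOX1, a lipoxygenase of the plastid, was at 57.0, 4.71 and 9.47 in WT_L6, against 1029, 1374 and 1513 in WT_L3 (log2 -5.27, SE 0.54, limma adjusted p = 9.26e-05), and CM-LOX2 had a log2 difference of -4.45. LOX5, another lipoxygenase, was higher (log2 1.16). Heat shock factors had 1 of 20 higher in L6 and 8 lower (median -0.29). HSF10 was at 44.1, 18.7 and 17.4 in WT_L6 and 539, 656 and 558 in WT_L3 (log2 -3.86, SE 0.26, limma adjusted p = 7.24e-06). Genes of abscisic acid and drought had 5 of 26 higher and 8 lower. ZEP1, an early enzyme of abscisic acid synthesis, was at 693, 344 and 386 in WT_L6 and 1957, 2564 and 2299 in WT_L3 (log2 -2.28, SE 0.28, limma adjusted p = 0.000269). In the blocked fit of wild-type arrays alone, 5 jasmonate genes and 3 heat shock factors were lower and none higher, and 2 abscisic acid and drought genes were higher and 3 lower.

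The widest gap of a named gene was that of BURP17, of a plant family named for its shared BURP domain, at 16.9, 13.5 and 28.5 in WT_L6, against 3390, 4166 and 4456 in WT_L3 (log2 -6.83, SE 0.43, limma adjusted p = 5.06e-06). AT5 was at 27.3, 29.3 and 34.8 in WT_L6 and 1516, 1772 and 1532 in WT_L3 (log2 -5.13, SE 0.41, limma adjusted p = 2.05e-05). DMC1, a recombinase known from meiosis, was at 9.66, 10.2 and 12.1 in WT_L6 and 145, 146 and 159 in WT_L3 (log2 -2.64, SE 0.09, limma adjusted p = 4.39e-07). The 3 WT_L3 arrays, plant 1 included, lay within a narrow band for each of these genes.

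The remaining lists are set beside the 26.2% higher and 31.1% lower of all genes. The list of cytosolic ribosomal proteins had 5 of 24 higher (20.8%) and 1 lower (4.17%), with a median of 0.14, so few of its members were lower. It was filled by symbol and may hold plastid members, as RPL18 (log2 0.91) also carries the name CL18. The histone list had 0 of 6 higher and 1 lower (median 0.39). The member lower was HTAS (log2 -0.31), which entered by its symbol and is not read as a histone. Without WT_L3 replicate 1, 11 members of the ribosomal list were higher and 1 lower. In the histone list 4 were then higher and 1, again HTAS, lower. Heat shock proteins had 3 of 19 higher and 6 lower, antioxidant enzymes 9 of 37 and 14, glutaredoxins 3 of 17 and 6, and calmodulins and CML proteins 4 of 22 and 7. PP2C phosphatases had 12 of 53 higher and 20 lower, the CIPK, CBL and CPK list 8 of 42 and 15, starch genes 3 of 8 and 2, and actin-binding genes 4 of 14 and 2.

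**Figure D4:**
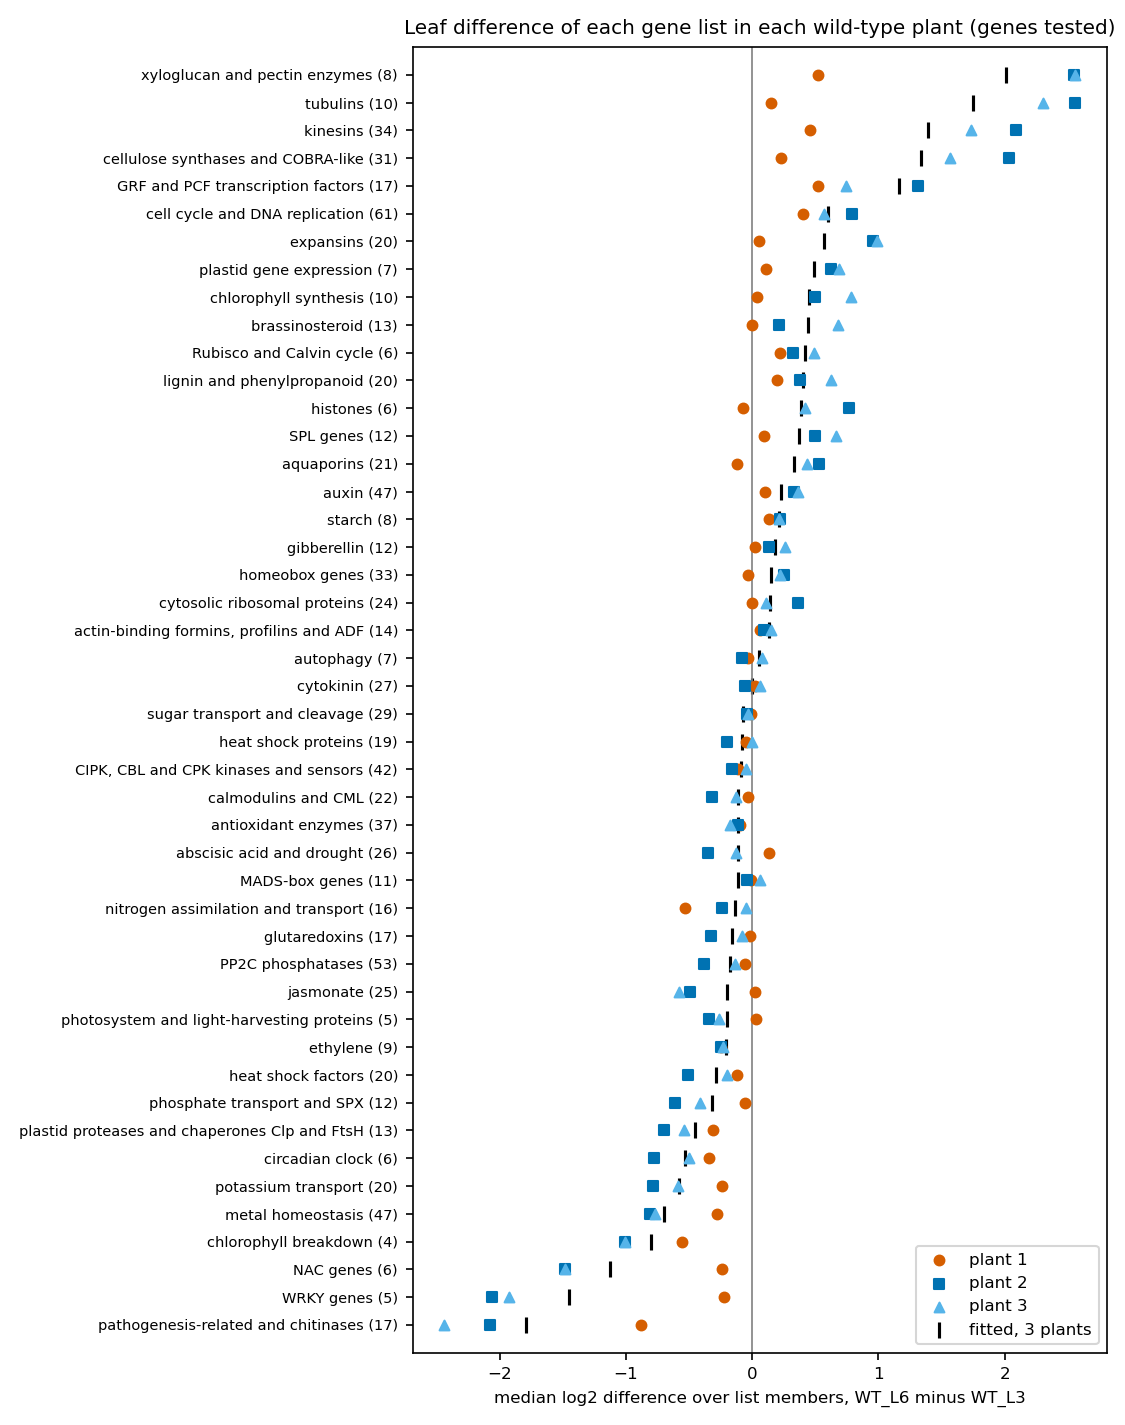
Median log2 difference between WT_L6 and WT_L3 over the tested members of each gene list (number in parentheses) in each wild-type plant, with the fitted median. For tubulins plant 1 is at 0.15, against 2.56 and 2.30 in plants 2 and 3, while for the Clp and FtsH list the 3 plants are at -0.31, -0.70 and -0.54.

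Set side by side by plant, some lists of growing cells had unequal leaf differences. The median difference of cellulose synthase and COBRA-like genes was 0.23 in plant 1, 2.03 in plant 2 and 1.57 in plant 3, and that of kinesins was 0.46, 2.09 and 1.73. Cell cycle and DNA replication genes were closer together, at 0.40, 0.79 and 0.57. Lists lower in L6 were uneven too for NAC and WRKY genes, as given above, and less so for others: metal homeostasis genes had -0.28, -0.81 and -0.77, chlorophyll breakdown -0.56, -1.01 and -1.01, and clock genes -0.34, -0.78 and -0.50. Nitrogen genes ran against this order, at -0.53, -0.24 and -0.05. These values are descriptions of 3 plants, and differences between plants were not tested. What sets the L3 of plant 1 apart was not tested.

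The over-expressors, whose arrays are not those of wild type although the fit pooled the spread of both, showed a similar leaf difference. In OE_L6 against OE_L3, 14445 probe sets (42.1%) were called. Calls in the same direction numbered 12215, which is 74.5% of the wild-type calls and 84.6% of the over-expressor calls, and 3 calls were opposite. The sign was shared by 99.2% of the wild-type calls and 87.7% of all probe sets, and across probe sets, which are not independent, the 2 sets of differences correlated at r = 0.966. Kinesins had 19 of 34 higher and 1 lower in OE_L6, the pathogenesis-related and chitinase list 0 of 17 higher and 13 lower, and potassium genes 0 of 20 higher and 14 lower. Growth and wall lists had fewer calls there than in wild type. Cell cycle genes had 13 of 61 higher, cellulose synthase and COBRA-like genes 11 of 31, and GRF and PCF genes 6 of 17. CESA4, TBL6, HOS66 and KRP6 were not called in OE_L6 (limma adjusted p = 0.0875, 0.124, 0.142 and 0.061), whereas LAC7 and LAC4 were (0.0271 and 0.0397).

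**Figure D5:**
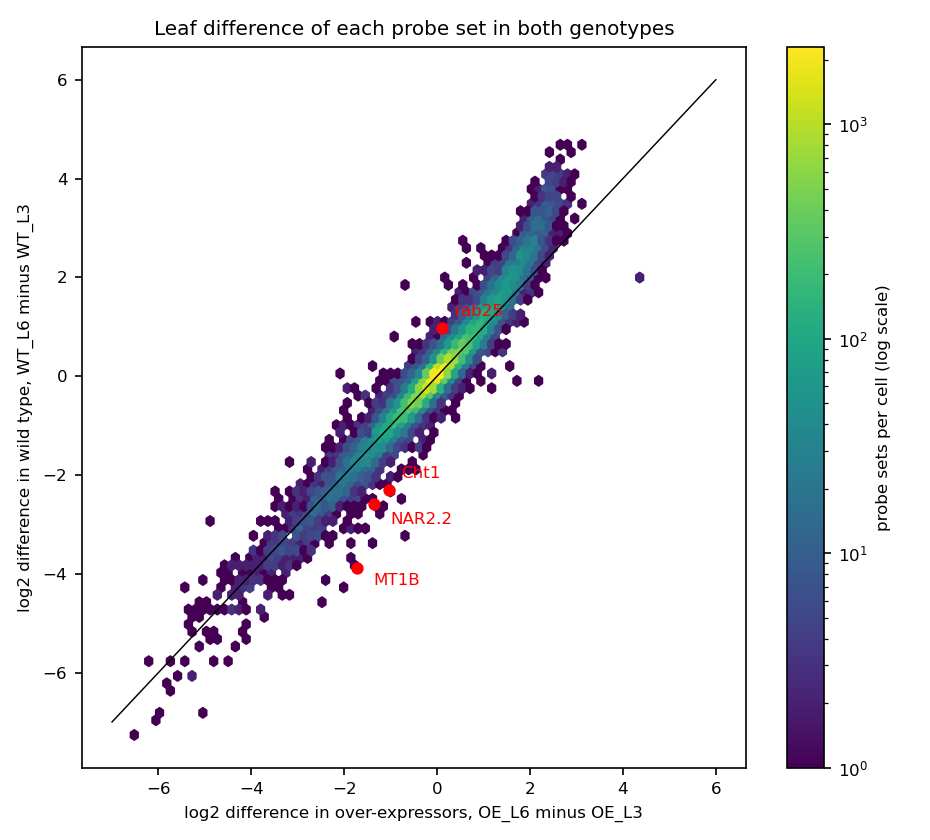
Log2 leaf difference of each of 34316 probe sets in wild type (vertical axis) and in the over-expressors (horizontal axis), with probe sets per cell in colour on a log scale and the line of equal difference. Points follow the line (r = 0.966), and the 4 named genes with the smallest adjusted p for a difference between genotypes are marked.

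Few differences between genotypes in the leaf difference were detected. For some genes the test could miss large ones: the SE of this difference was 1.49 for CESA4 and 1.63 for TBL6. The test of the wild-type minus the over-expressor difference called 3 probe sets (0.00874%), and 844 (2.46%) had an unadjusted p under 0.05. With the plant as a block none was called. Of the named genes, the smallest adjusted p values were 0.0663 for NAR2.2, 0.0727 for rab25, 0.0828 for MT1B and 0.205 for Cht1, so none passed. The wild-type log2 differences of these genes were -2.58, 0.97, -3.89 and -2.31, against -1.36, 0.11, -1.73 and -1.04 in the over-expressors. SPL14 had 2.60 in wild type and 0.89 in the over-expressors (difference 1.71, adjusted p = 1).

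Of the 16403 called probe sets, 10290 have 1 gene in the annotation used and 6113 are not named here. Probe sets whose type allows binding of related transcripts cannot tell close paralogs apart. This touches HAK1, AKT1, AMT3-2, PT8, Lsi6, RCA, RBCS-C, HEMB, PCF8, GST1, Cht2, SGR and TBL6 among the genes above.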

How the data were processed

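Total RNA was biotin-labelled and hybridised to Affymetrix rice arrays, per the labels' protocols. The deposited table holds 1 linear signal intensity for each of 57381 probe sets on 12 arrays. The unit was read from its values; how the authors summarized and scaled them is not stated in any source used here. No detection calls were used, and precision is limited by the number of arrays. If arrays were scaled to a common level, a shift shared by all transcripts would not be visible.

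In R 4.3.3 with limma 3.58.1, log2(intensity + 16) was fitted with 4 groups (lmFit, eBayes with a trend, 8 residual degrees of freedom). After 187 control probe sets were removed, probe sets below the 40th percentile of mean log2 signal were dropped, which kept 34316. P-values were two-sided and adjusted by Benjamini-Hochberg; the fit was tested on simulated data. Summaries used Python 3.11.15.

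Names come from the platform annotation (22436 probe sets with 1 gene, 95 with several, 34850 not listed) and the RefSeq gene table. Members and lists were chosen with earlier results of these data known, and lists were filled by gene symbols and synonyms. Named genes are called genes whose groups do not overlap: the 8 highest and 8 lowest statistics, the 5 highest and 5 lowest differences, the 2 largest in each direction of each list, and the 4 brightest on each side; for the difference between genotypes, the 4 of smallest adjusted p. Others (TUB1, TUB3, GRF3, SPL4, SPL8, SPL16, LAC24, NYC1, FTSH2, FTSH3, FTSH4, PMEI28, GI, PHT1-4, GLN1-1, GLN1-2, GLT2, NH1 and the PHR, SPX and marker genes) were chosen after their values were seen.

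Both leaves of a plant carry its name in the labels, so replicate numbers pair the samples; the deviations of paired arrays from their group means correlated at -0.24, -0.36 and -0.05. Alternatives were quantile normalization, pseudocounts of 1 and 64, other filters, no trend, wild-type arrays alone, plant as a fixed or random block, array weights, 1 probe set per gene and each array left out.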

Additional observations from a re-analysis of the deposited data

Results flagged for a closer look

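In 3 probe sets the leaf difference differed between wild type and the over-expressors by the test of that difference. None was called with the replicate block by plant, with a pseudocount of 1, without any 1 of the WT_L6 arrays, without OE_L6 replicate 1 or without OE_L3 replicate 2, so these calls rest on the fit used. The first, which has no gene name here, was at 182, 176 and 202 in WT_L6, 16.8, 19.7 and 10.9 in WT_L3, 32.1, 49.3 and 30.9 in OE_L6 and 17.1, 19.8 and 20.1 in OE_L3. Its log2 leaf difference was 2.68 in wild type and 0.60 in the over-expressors (difference 2.08, SE 0.19, limma adjusted p = 0.0184). It is the probe set of the 3 that was called between leaves of wild type.

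Both other probe sets belong to 1 gene, LOC4331398, and were dim in both wild-type leaves, between 9.72 and 15.6. They were at 211 to 362 in OE_L6 and at 983 to 1285 in OE_L3. Their differences between genotypes were 1.75 (SE 0.18, limma adjusted p = 0.0275) and 1.77 (SE 0.19, limma adjusted p = 0.0345), with wild-type log2 leaf differences of -0.17 and -0.18 that did not pass. The leaf difference of this gene was thus measured in the over-expressors. Groups held 3 arrays, too few to look for single outlying arrays gene by gene.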

How the results depend on the processing

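The number of called probe sets (16403, 8193 higher and 8210 lower in WT_L6) was 4196 (1433 and 2763) in wild-type arrays alone with the replicate block by plant and 24090 (12799 and 11291) with array weights. With 1 probe set per gene it was 9181 of 15517 (4211 and 4970), where fewer features were tested, and 4944 were at least 2-fold. Without 1 of the 6 arrays it ran from 10305 to 18399, with 4124 to 9804 higher and 6181 to 8595 lower; the low end was without WT_L3 replicate 3 (10305, 4124 higher) or 2 (10665, 4451 higher) or WT_L6 replicate 2 (4977 higher). The cause was not tested. Other settings kept the counts within 1.5 times. The count for the difference between genotypes (3) was 0 with a pseudocount of 1 and with the replicate block by plant, 1 with a random block or 1 probe set per gene, 6 with a pseudocount of 64, 7 without a filter, 23 with array weights, and 0 to 7 without 1 array.

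Of the named genes, 83 were higher and 84 lower in WT_L6. None reversed, but they were chosen with groups that do not overlap. Leaving out 1 array or blocking by plant could therefore not turn a sign. Under every setting run, 28 of the 83 and 51 of the 84 stayed called, and in wild-type arrays alone with the replicate block 28 and 52 did. Of 828 list medians, 42 moved by more than 1 SD of the plants, and the sign turned 13 times in 8 of 46 lists: cytokinin, gibberellin, brassinosteroid, abscisic acid and drought, autophagy, sugar, MADS-box and actin-binding genes.

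Only 3 plants were measured, and WT_L3 varied more than WT_L6 while the fit pooled both, so p-values rest on an average spread. Dim probe sets have understated folds.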
